A study of Mus musculus with 24 samples.

Results

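The genes described here encode the core proteins of the microRNA pathway: the Argonautes Ago1, Ago2, Ago3 and Ago4, the nuclear processing proteins Drosha and Dgcr8, the cytoplasmic nuclease Dicer1, and the silencing scaffolds Tnrc6a, Tnrc6b and Tnrc6c. They were taken by symbol from the authors' table of polysome sequencing results, and all 10 were found among its 13504 genes. The table came from mouse E14 embryonic stem cells in which the ribosomal protein RACK1 carried an auxin-inducible degron (AID) in both lines, grown in KO DMEM medium. In the Ribo-Tweezer line (Rps26Tir1 in the table) the receptor TIR1, which marks a degron-tagged protein for destruction in the presence of indole-3-acetic acid (IAA), a plant hormone, was fused to the ribosomal protein RPS26. The control line (FreeTir1 in the table) carried TIR1 that was not tethered to the ribosome. Cells of each line received IAA or the solvent DMSO for 12 h. PolyA RNA was then sequenced from the free, low-translation and heavy-translation fractions of polysome profiles, 24 libraries in all, 2 for each of 12 groups. The labels do not say whether a line was a single clone or whether replicates were separate cultures, and the p-values therefore cover no more than the spread between libraries.

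In microRNA biogenesis Drosha, with its RNA-binding partner Dgcr8, cuts the primary transcript in the nucleus, and Dicer1 cuts the exported hairpin into a short duplex. One strand is loaded into an Argonaute protein, and bases 2 to 8 of the microRNA, its seed, pair with sites that lie mostly in the 3' UTR of target mRNAs. TNRC6 proteins (also called GW182) bind Argonaute and bring in deadenylases, which represses the target. Embryonic stem cells are known for high levels of the miR-290 to miR-295 cluster and for low levels of mature let-7, which LIN28 proteins hold back. RACK1 has been tied to the Argonaute complex in earlier work, and the mRNAs of the complex are compared in both lines here.

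The mRNAs of this pathway also hold seed matches to microRNAs, which differ in number between the members. The 3' UTR of the transcript named for each gene was searched, on the sense strand only, for the 8-base matches of 8 microRNAs, the reverse complement of the seed followed by A. The letters searched were AGCACTTA for miR-291a-3p, CTACCTCA for let-7a-5p, GCACTTTA for miR-17-5p, TGCTGCTA for miR-16-5p, ATGCTGCA for miR-103-3p, GTGCAATA for miR-92a-3p, TACTTGAA for miR-26a-5p and TTTGCACA for miR-19b-3p. The matches of miR-291a-3p and miR-17-5p overlap in their letters, as do those of miR-16-5p and miR-103-3p. The 4 microRNAs whose matches are described next are given from RefSeq (GRCm38.p6), 5′ to 3′, with the seed in capitals.
mmu-miR-26a-5p: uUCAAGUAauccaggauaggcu
mmu-miR-103-3p: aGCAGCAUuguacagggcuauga
mmu-miR-291a-3p: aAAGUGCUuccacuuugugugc
mmu-let-7a-5p: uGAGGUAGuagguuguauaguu

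A match to miR-26a-5p occurred in all 3 Tnrc6 mRNAs. The match nearest the stop codon lay at position 150 of 2345 in Tnrc6a, 238 of 11609 in Tnrc6b and 582 of 2586 in Tnrc6c. Positions in the 3' UTR are counted from 1 after the stop codon. The windows of 30 bases are shown from GENCODE M21 (GRCm38) transcripts, with the match in capitals, to compare the 3 paralogues.
Tnrc6a, chr7:123193081-123193110, plus strand: ccaaaacatatcagtttgaaTACTTGAAtc
Tnrc6b, chr15:80929694-80929723, plus strand: agaacatatcactcttgaaaTACTTGAAtc
Tnrc6c, chr11:117761413-117761442, plus strand: agacatatcaaacatgcaaaTACTTGAAcc
On inspection the stretch ACATATCA, 8 bases long, stood 7, 9 and 10 bases before the match in Tnrc6a, Tnrc6b and Tnrc6c. Of 565 genes with a miR-26a-5p match, 3 had this stretch in the 20 bases before it, and they were the Tnrc6 genes from which it was read. Matches to miR-26a-5p were present in 4 of the 10 members (the other was Ago3), and in 4.27% of the 13243 genes with an annotated 3' UTR. Among the 11848 genes whose 3' UTRs fall within the members' range of lengths, 169 to 12742 bases, the share was 4.73%. That range does not match the members for length: their median 3' UTR was 3766.5 bases, against 912.5 over all genes. Among the 4502 longest transcripts, 371 genes had a match. Tnrc6b held a second match at position 10864.

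A match to miR-103-3p occurred in 4 members, Ago1, Ago2, Dgcr8 and Dicer1. It occurred in 3.37% of all 3' UTRs and in 3.68% of those within the members' range of lengths. The latter are not matched to the members for length, and 281 genes among the 4502 longest transcripts had a match. The windows of these 4 members are shown because nuclear processing (Dgcr8), Dicer and Argonaute genes share the match. The grouping depends on the 8-base length. Shorter matches of 7 bases also occurred in Ago3, Ago4, Tnrc6b and Tnrc6c, whereas Drosha and Tnrc6a had 0.
Ago1, chr4:126438738-126438767, minus strand: agtgccttcccgcaacggtaATGCTGCAga
Ago2, chr15:73096865-73096894, minus strand: agaataaatccccctttagtATGCTGCAta
Dgcr8, chr16:18254042-18254071, minus strand: tgggtcttatatgtacagtcATGCTGCAag
Dicer1, chr12:104690167-104690196, minus strand: tgaggctgatgcttcatgtaATGCTGCAct
Ago3, which has the longest 3' UTR of the members, was the one member with 8-base matches to miR-291a-3p of the stem cell cluster. They lay at positions 7156 and 9952. Tnrc6b and Tnrc6c held 7-base seed matches to this microRNA. Ago2 and Ago3 each held a let-7a-5p match, at positions 8919 and 10427 of 3' UTRs of 11064 and 12742 bases. Of all 3' UTRs, 3.06% held a miR-291a-3p match and 3.23% a let-7a-5p match. Among the 4502 longest transcripts, 271 and 266 genes had a match, in that order.
Ago3 and miR-291a-3p, chr4:126338309-126338338, minus strand: tagtccaggactttaattgcAGCACTTAag
Ago2 and let-7a-5p, chr15:73097980-73098009, minus strand: ctttcttttacaatgtggatCTACCTCAgt
Ago3 and let-7a-5p, chr4:126335038-126335067, minus strand: gtggtggcacctgccctcacCTACCTCAcc

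Ago3 and Tnrc6b, with 3' UTRs of 12742 and 11609 bases, each held 6 matches, whereas Ago4 and Drosha, with 3682 and 169 bases, held 0. Ago2 and Dgcr8 each held 2, and Ago1, Dicer1, Tnrc6a and Tnrc6c each held 1. No member had a miR-17-5p match of this length. A seed match is a description of letters and does not show that the site is used.

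**Figure D1:**
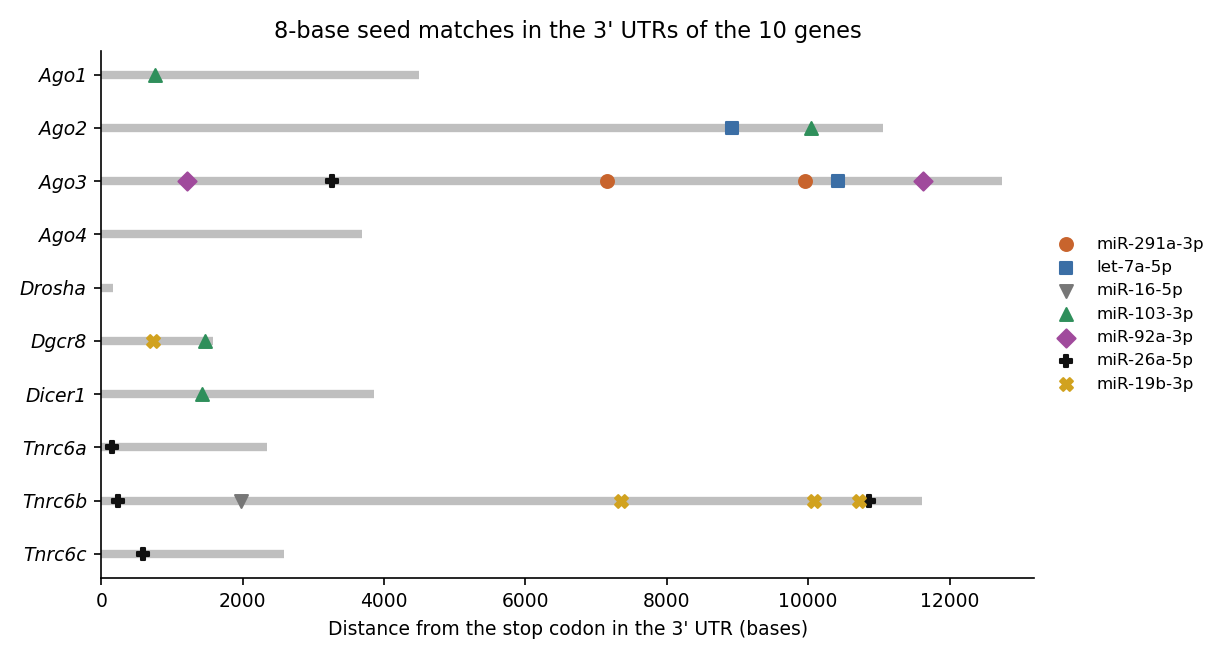
Positions of the 8-base seed matches (symbols, 1 per microRNA) along the annotated 3' UTRs (grey bars, to scale) of the 10 genes; the x axis is the distance from the stop codon in bases. The miR-26a-5p matches nearest the stop codon in Tnrc6a, Tnrc6b and Tnrc6c sit at positions 150, 238 and 582, and Ago4 and Drosha have 0 matches.

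Dgcr8 mRNA carries annotated microRNA hairpins of its own, and such hairpins in this mRNA are known to be cut by Drosha and Dgcr8 as a feedback. The miR-3618 hairpin (chr16:18284550-18284637) lay in the 5' UTR of the named transcript and the miR-1306 hairpin (chr16:18284239-18284317) in the coding sequence. One mature arm of each is shown, with bases 2 to 8 in capitals.
mmu-miR-3618-5p: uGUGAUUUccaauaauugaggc
mmu-miR-1306-3p: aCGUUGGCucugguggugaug
Tnrc6b held the miR-5113 hairpin in its 3' UTR, and the other 8 members held no RefSeq hairpin.

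Each gene had a deposited fold change for either line, with its p-value, adjusted p and an average expression shared by the lines. The headers name the line only, and the fold change is read here and in the figures as one between IAA and DMSO. Libraries were not analysed one by one here, so depth is unknown and neither values per sample nor an SD can be given. Neither the numerator of the fold change nor the fractions behind it are stated by the headers. With the usual numerator, IAA, a positive value would mean more mRNA after IAA. That meaning would not hold if the fold change compares fractions with each other. Fold changes are read as log2, and standard errors (SE) and 95% intervals were worked back from the p-values. They do not separate mRNA amount from ribosome loading, nor fewer cells of a kind from less RNA per cell. All 14 markers of pluripotent cells were in the table, with average expression from 1.40 to 10.8 on a log scale read as log2. Of 10 fibroblast feeder markers 5 were measured, from 0.15 to 3.53, and all 7 primitive endoderm markers lay below 3. In the Ribo-Tweezer line 1 of these feeder markers was called, Col1a1 with -1.42 (adjusted p = 0.0254, from the authors' deposited table), 4 of the 5 had an unadjusted p under 0.05 and 3 of the 5 were positive; their part in the values of the members was not tested. Rack1 itself had adjusted p of 0.818 (control) and 0.892 (Ribo-Tweezer), and Rps26 had 0.840 and 0.843, in the authors' deposited table. Because the degron removes protein, the mRNA does not tell whether RACK1 was depleted.

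Average expression less the log2 of transcript length in kilobases, a level per length, was highest for Drosha at 3.97, followed by Dgcr8 at 3.15. Ago2, the Argonaute known for slicing its targets, stood at 2.67 and Ago1 at 2.58. Tnrc6a, Dicer1 and Tnrc6c followed at levels per length of 2.34, 2.09 and 1.91, and Tnrc6b was lower at 0.056. Ago4 and Ago3 were lowest, at -1.56 and -1.72. The spread of these levels between libraries is not known, so neighbours in this order cannot be told apart. The order also takes average expression as not yet scaled by length, and the full annotated transcript as the one present. Neither is stated. Ago3, Ago1 and Ago4 lie side by side on the minus strand of chromosome 4 (126331704 to 126429556, 126435012 to 126468583 and 126489541 to 126533472), with gaps of 5455 and 20957 bases. The coding lengths of the 4 Argonautes were close, from 2574 to 2586 bases, and 3' UTRs made up most of each transcript. Across the 10 members, between 0% (Tnrc6c) and 9.44% (Dgcr8) of all 31-base stretches recur in other genes.

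None of the 10 genes had an adjusted p under 0.05 over all genes, the threshold set here for a call, in either line. In the control line 0 of the 10 were called by the adjusted p of the authors' deposited table, against 0.0% of all genes. At an unadjusted p under 0.05 the control line held 2 members, Ago3 and Tnrc6b, both positive. The share of all genes was 6.69% in either direction and 2.72% with positive values. In the Ribo-Tweezer line 0 of the 10 were called by the adjusted p of the authors' deposited table, against 1.64% of all genes. There the members with an unadjusted p under 0.05 were Ago4 and Tnrc6a, both positive. Over all genes the share was 16.3% in either direction and 9.55% with positive values. The members' transcripts are long, and 3415 genes lie within their range of lengths. Of these, 570 had a positive value with such a p in the Ribo-Tweezer line, and 184 in the control line.

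Among the Argonautes, Ago1 and Ago2 had values close to 0, with narrower intervals than Ago3 and Ago4. Ago1 stood at -0.059 (SE 0.117) in the control line and 0.036 (SE 0.118) in the Ribo-Tweezer line of the authors' deposited table. Ago2 (chromosome 15, 73095844 to 73184935) stood at 0.0072 (SE 0.101) and 0.076 (SE 0.0998) in the same lines of the authors' deposited table. The 95% interval of Ago2 in the Ribo-Tweezer line ran from -0.13 to 0.28, with an upper bound of 1.21-fold.

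Ago3 and Ago4, which were expressed at low levels, had larger positive values and wider intervals. Ago3 stood at 0.55 (SE 0.174) in the control line of the authors' deposited table, with p = 0.00367 and adjusted p = 0.399. It ranked 102nd of all genes by p there, and its value in the Ribo-Tweezer line of the authors' deposited table was 0.24 (SE 0.172) with adjusted p = 0.524. Ago4 showed the opposite order of lines, with 0.27 (SE 0.241) in the control line and 0.53 (SE 0.245) in the Ribo-Tweezer line of the authors' deposited table. Its adjusted p was 0.884 in the former and 0.269 in the latter. The average expression of Ago3 and Ago4, 2.24 and 1.14, was below that of the other 8 members, which lay between 4.17 and 6.46.

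In the Microprocessor, Drosha (chromosome 15, 12824815 to 12935291), the RNase III enzyme, was the member with the lowest value in the Ribo-Tweezer line. It stood at -0.16 (SE 0.121) there and -0.0066 (SE 0.121) in the control line of the authors' deposited table, where its adjusted p was 0.547 and 0.996 in that order. Dgcr8 (chromosome 16, 18253948 to 18289246) stood at 0.19 (SE 0.134) in the control line and 0.021 (SE 0.129) in the Ribo-Tweezer line of the authors' deposited table. For both genes the value in the Ribo-Tweezer line was the lower, but neither line passed.

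Dicer1 (chromosome 12, 104687742 to 104751952) had nearly the same value in each line. It stood at 0.059 (SE 0.112) in the control line and 0.071 (SE 0.111) in the Ribo-Tweezer line of the authors' deposited table, where its adjusted p was 0.961 and 0.801 in that order. The 95% interval in the Ribo-Tweezer line ran from -0.16 to 0.30.

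The TNRC6 genes were positive in both lines as deposited, but Tnrc6b and Tnrc6c stood at -0.087 and -0.028 in the Ribo-Tweezer line once a fitted trend on transcript length, GC content and expression was subtracted. Tnrc6a (chromosome 7, 123123885 to 123195296) had the smallest p of all members, at 0.42 (SE 0.124), or 1.34-fold, in the Ribo-Tweezer line of the authors' deposited table, with p = 0.00187 and adjusted p = 0.0682. Its p ranked 348th of all genes, where the 222 lowest were called, and with its SE a value of 0.46 would have been needed for a call. In the control line of the authors' deposited table Tnrc6a stood at 0.16 (SE 0.124) with adjusted p = 0.848. Tnrc6b (chromosome 15, 80711313 to 80941085) was higher in the other line, with 0.33 (SE 0.114) and adjusted p = 0.482 for the control line against 0.14 (SE 0.116) and adjusted p = 0.578 for the Ribo-Tweezer line in the authors' deposited table. Tnrc6c (chromosome 11, 117654289 to 117763439) stood at 0.14 (SE 0.111) and 0.084 (SE 0.113) in these lines of the authors' deposited table.

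**Figure D2:**
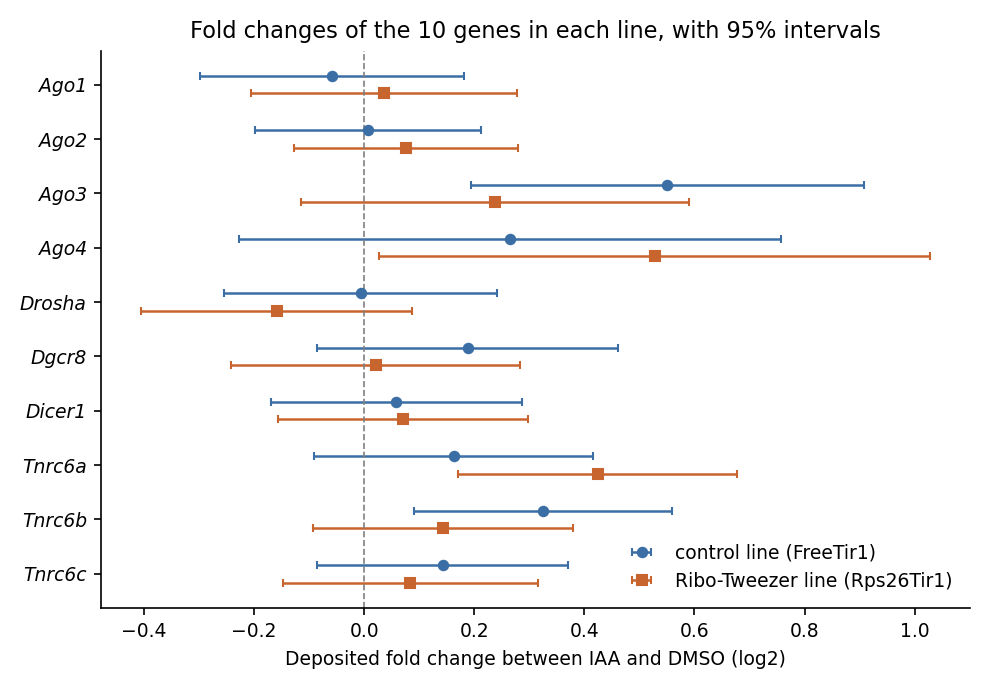
Deposited log2 fold change between IAA and DMSO (x axis) of each of the 10 genes in the control line (circles) and the Ribo-Tweezer line (squares); bars are 95% intervals worked back from the p-values. The bars that stay above 0 are those of Ago3 and Tnrc6b in the control line and of Ago4 and Tnrc6a in the Ribo-Tweezer line, each without passing the adjusted threshold.

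As a group the members were mostly positive as deposited, and mostly negative in the Ribo-Tweezer line once a joint trend on length, GC content and expression was subtracted. In the control line 8 of 10 had a positive value, against 48.6% of all genes, with a median of 0.15 against -0.0044 over all genes. In the Ribo-Tweezer line 9 of 10 were positive, against 53.0% of all genes, with a median of 0.080 against 0.014. The 8 members positive in the control line were also positive in the Ribo-Tweezer line. Values were positive in both lines for 31.9% of all genes and for 46.9% of the genes within the members' range of transcript lengths. Within that range, 1602 of the 2067 genes positive in the control line were positive in both. Both groups of values moved with transcript length: the members' named transcripts ranged from 4320 bases for Dgcr8 to 17332 bases for Tnrc6b, with a median of 8453.5 against 2881.5 over all genes. Of the 3415 genes within that range of lengths, 60.5% were positive in the control line and 67.8% in the Ribo-Tweezer line, with medians of 0.044 and 0.093. Once the fitted joint trend was subtracted, the median of the members was 0.073 in the control line and -0.040 in the Ribo-Tweezer line, where 7 of the 10 values were then negative, against 6650 of the 13504 genes. The 3 values that stayed positive there were those of Tnrc6a (0.31), Ago4 (0.43) and Ago3 (0.011). The transcripts of Ago2, Ago3 and Tnrc6b lie at percentiles 99.5, 99.8 and 99.9 of length, where few genes support the fitted trend.

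**Figure D3:**
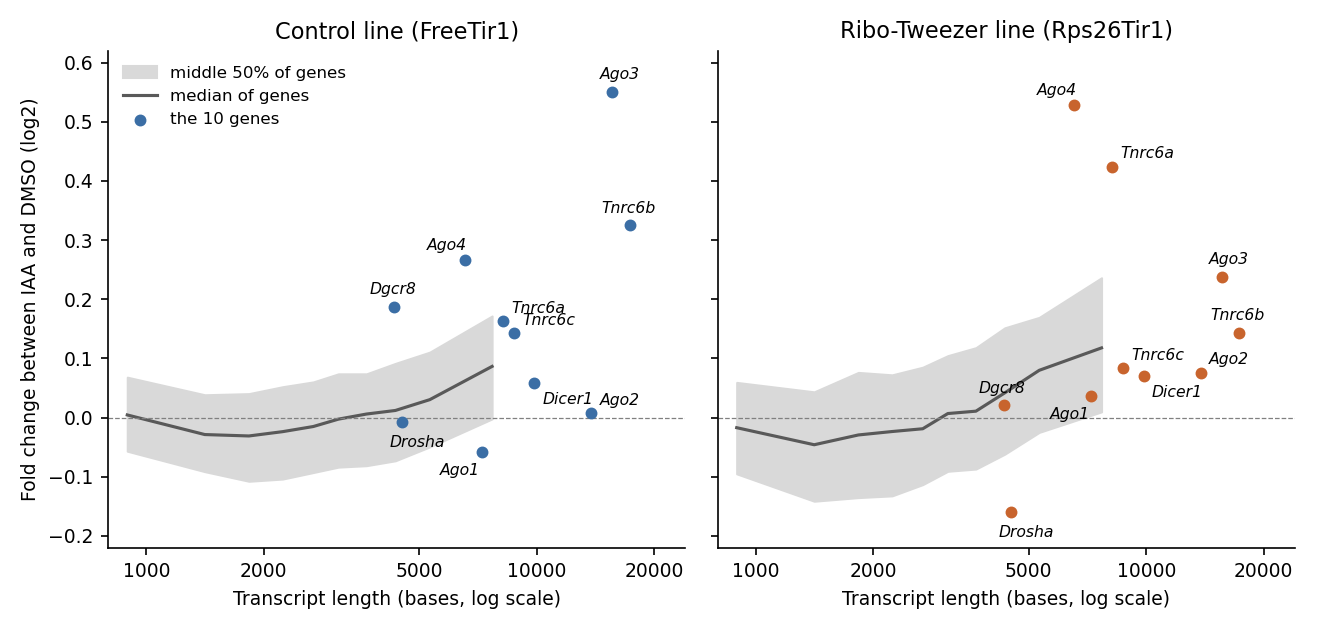
Log2 fold change between IAA and DMSO (y axis) against transcript length (x axis, log scale) in each line; the line and band give the median and middle 50% of genes with average expression of at least 3 in 10 bins of length, and points are the 10 genes. The median of the longest bin is 0.087 in the control line and 0.12 in the Ribo-Tweezer line, and most members lie at lengths beyond its middle.

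A comparison of the lines with each other, the difference of fold changes as Rps26Tir1 minus FreeTir1, called 0 of the 10 members at an adjusted p under 0.05, against 0.00741% of all genes, a single one. The test was two-sided, with SEs worked back from the deposited p-values. At an unadjusted p under 0.05 the test held 0 members, against 6.18% of all genes. Tnrc6a came nearest, with a difference of 0.26 (SE 0.175, 95% interval -0.097 to 0.62, adjusted p = 0.963). Ago3 differed by -0.31 (SE 0.245, 95% interval -0.81 to 0.19) and Tnrc6b by -0.18 (SE 0.163, 95% interval -0.51 to 0.15). Ago4 had a difference of 0.26 with the widest interval, -0.44 to 0.96. For Dicer1 the difference was 0.012, with an interval from -0.31 to 0.33, and for Ago2 it was 0.069, from -0.22 to 0.36. In all, 5 members had positive and 5 negative differences, against 54.1% positive over all genes, with a median of -0.023 against 0.018. These intervals do not show that the lines acted alike, since they leave room for differences larger than the values themselves.

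**Figure D4:**
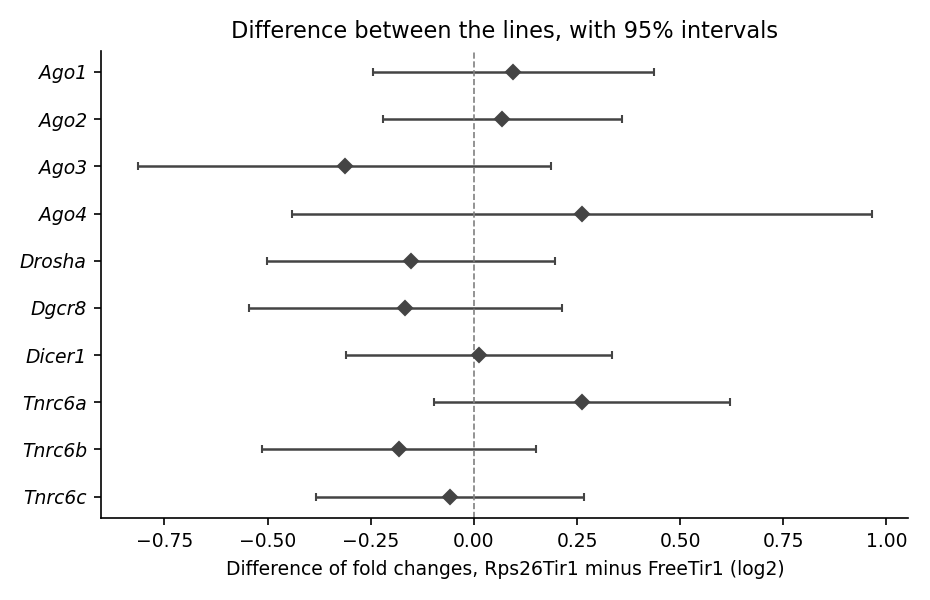
Difference of the log2 fold changes, Rps26Tir1 minus FreeTir1 (x axis), for the 10 genes; bars are 95% intervals that take the errors of the lines as independent. Every bar includes 0, with 5 genes on each side, and the bar of Ago4 is the widest.

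Partners of these proteins and related genes, grouped by choice, were compared in 6 lists. Calls are to be read against 1.64% of all genes for the Ribo-Tweezer line and 0.0% for the control. Counts at an unadjusted p under 0.05 are to be read against 16.3% and 6.69% of all genes. Cofactors of the Microprocessor had 20 of 20 genes measured, and 1 passed in the Ribo-Tweezer line. It was Srsf3, a splicing factor that also promotes the cutting of primary microRNAs, with a value of 0.44 (adjusted p = 0.0289) by the authors' deposited table. Other genes share 37.6% of the 31-base stretches of Srsf3, which leaves its value uncertain. The control line had 0.16 (adjusted p = 0.803) for Srsf3 by the authors' deposited table. Safb, a scaffold attachment factor, came next at 0.26 with adjusted p = 0.286 in the Ribo-Tweezer line of the authors' deposited table. The list median was 0.034 in the Ribo-Tweezer line with 10 of 20 positive, and 0.050 in the control line with 14 of 20 positive.

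The 7 genes listed as export and Dicer partners include the RNA-editing gene Adarb1, the 1 that passed, also in the Ribo-Tweezer line. Whether Adarb1 acts as a partner of Dicer was not tested. Xpo5, Ran, Rangap1, Rcc1, Tarbp2 and Prkra did not pass in either line. Adarb1, an adenosine deaminase that edits double-stranded RNA including microRNA precursors, had 0.69 (adjusted p = 0.00542) there and 0.14 (adjusted p = 0.875) in the control line of the authors' deposited table. Its difference between the lines was 0.54 (SE 0.174, adjusted p = 0.425), which did not pass. Prkra, a Dicer-binding protein, stood at -0.25 with adjusted p = 0.315 in the Ribo-Tweezer line of the authors' deposited table. The list median was -0.043 in that line, with 5 of 7 negative, and 0.012 in the control line.

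None of the 15 measured genes for microRNA tailing and decay passed in either line by the authors' adjusted p, and 0 (Ribo-Tweezer) and 2 (control) had an unadjusted p under 0.05. Their medians were 0.095 and 0.0079 in that order. Lin28b, which blocks let-7 maturation, had the smallest p of them in the control line of the authors' deposited table, at 0.37 with adjusted p = 0.497, and stood at 0.076 in the Ribo-Tweezer line. Its paralogue Lin28a stood at 0.20 and 0.16, and the uridylyltransferase gene Tut7 at 0.0079 and 0.19, in the control and Ribo-Tweezer lines of the authors' deposited table. None of the 27 genes for loading and partners of Argonaute passed, and 1 (Ribo-Tweezer) and 2 (control) had an unadjusted p under 0.05, with medians of -0.018 and 0.019. Gigyf2, a translational repressor, stood at 0.22 with adjusted p = 0.213, and Limd1, an Argonaute-binding LIM protein, at 0.27 with adjusted p = 0.312, in the Ribo-Tweezer line of the authors' deposited table. The chaperone gene Hspa8, with 77.2% of its stretches shared, stood at 0.33 with adjusted p = 0.482 in the control line of the authors' deposited table.

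The 28 effector genes for deadenylation, decapping and repression, which act after TNRC6, held 0 calls in either line, with 3 (Ribo-Tweezer) and 5 (control) at an unadjusted p under 0.05 and medians of 0.010 and 0.023. The decapping enzyme gene Dcp2 came nearest, at 0.42 with adjusted p = 0.0742 in the Ribo-Tweezer line of the authors' deposited table and 0.27 with adjusted p = 0.648 in the control line. The helicase gene Ddx6 stood at 0.27 with adjusted p = 0.126 in the Ribo-Tweezer line of the authors' deposited table, and the CCR4-NOT subunit gene Cnot11 at -0.35 with adjusted p = 0.556 in the control line. None of the 11 measured PIWI pathway genes passed, and 1 (Ribo-Tweezer) and 0 (control) had an unadjusted p under 0.05. The list medians were 0.15 and 0.089 in that order. Most of this list was expressed at low levels, with 4 of the 11 genes at an average expression of at least 3. Tdrd3, a Tudor protein, and Mybl1, a transcription factor of germ cells, stood at 0.35 and 0.30 with adjusted p of 0.228 and 0.325 in the Ribo-Tweezer line of the authors' deposited table.

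**Figure D5:**
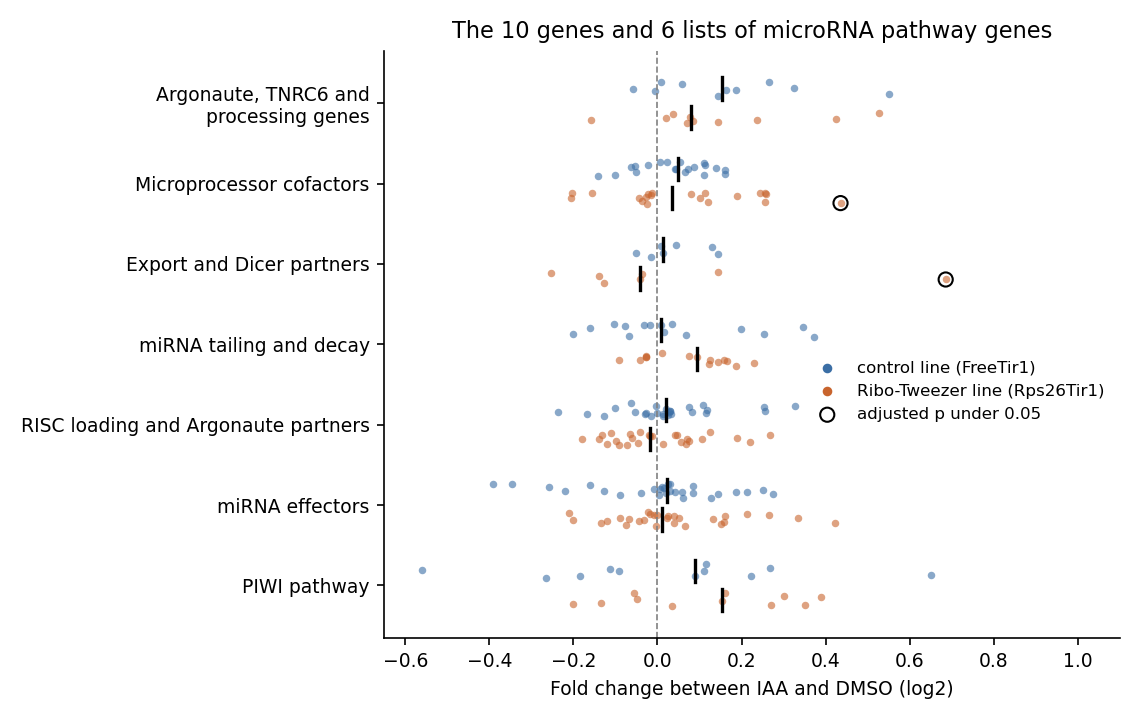
Log2 fold change between IAA and DMSO (x axis) of each gene (points) of the 10 members and the 6 lists, in the control line (upper points of each row) and the Ribo-Tweezer line (lower points); black bars are medians and circles mark an adjusted p under 0.05. Srsf3 at 0.44 and Adarb1 at 0.69, both in the Ribo-Tweezer line, are circled.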

How the data were processed

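RNA was extracted with Trizol and made into paired-end TruSeq libraries, per the labels' protocols. How reads were aligned and counted, against which build, and how the fold changes were fitted is not stated in the sources used here. The deposited log2 fold changes and average expression carry column names of a limma results table, per the file headers, though no log base is stated. The authors also deposited a p-value and an adjusted p-value for each line, and the relation between them corresponds to 15864 tested genes.

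An SE was worked back from each fold change and its p-value with 29 degrees of freedom, estimated from the agreement of the SEs of the lines (8 to 60 were tried). The difference between lines was divided by the root of the summed squared SEs, which takes their errors as independent, and its p-values were adjusted by Benjamini and Hochberg's method over 13504 genes. The procedure was also run on simulated data in which all errors were independent. That run therefore cannot check whether the errors of the lines are independent here. Planned fits on values per library were not run, since no such values were analysed here. Transcript features come from GENCODE M21 (GRCm38), to which all 13504 genes matched by identifier, and were computed with Python 3.11.15 and SciPy 1.17.1; the microRNA sequences are RefSeq's. Alternatives changed the genes adjusted together, the degrees of freedom and the correlation of errors, or removed a quadratic trend on length, GC content and expression.

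Members and lists were chosen with earlier results of these data known. All members, Rack1 and Rps26 were named, and of each list every gene past the threshold and those with the smallest p (2 for Ribo-Tweezer, 1 for control). Col1a1 was named after its value was seen. Likeness between genes was not computed, because each gene has 1 fold change per line. List genes under symbols not in the table were not analysed here.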

Additional observations from a re-analysis of the deposited data

How the results depend on the processing

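The count of members called stayed at 0 in each line and in the difference between lines under every alternative run. The adjusted p of Tnrc6a in the Ribo-Tweezer line was 0.0726 when adjusted over the genes of the table, 0.0853 with low genes (average expression below 3) left out, and 0.216 once the length, GC and expression trend was removed. That removal moved the median of the members in the Ribo-Tweezer line from 0.080 to -0.040. It turned the sign of Ago2 (-0.15) and Dicer1 (-0.040) in the control line, and of Ago1 (-0.053), Ago2 (-0.11), Dgcr8 (-0.014), Dicer1 (-0.065), Tnrc6b (-0.087) and Tnrc6c (-0.028) in the Ribo-Tweezer line. It also turned the difference of Dicer1 between the lines (-0.025) and the control values of Tut7 (-0.024), Gigyf2 (-0.013) and Limd1 (-0.0016). None of these values was called. The calls of Srsf3 and Adarb1 held under each alternative, with adjusted p of at most 0.0422 and 0.0151. With errors of the lines correlated at 0.3 the lowest adjusted p of a member in the difference was 0.563, and 46 genes were called over the table in place of 1; that count was 0 with 20 degrees of freedom and with low genes left out, and 3 with 60. No paired analysis was possible because no value per library was analysed here, and for the same reason no replicate could be left out, nor could other normalizations be tried. Depth is unknown. Precision is limited by the SEs, with which members needed values of 0.37 to 0.91 for a call in the Ribo-Tweezer line.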

Other observations

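Genes with seed matches in their 3' UTR can be described in the same table, as values without a test. Transcripts were divided by length into 3 equal groups, and medians are given for the longest group, since most matches lie there. Of its genes, 271 had a miR-291a-3p match, with a median fold change of 0.11 for Ribo-Tweezer cells against 0.078 for genes without a match, and of 0.036 against 0.033 for control cells. For let-7a-5p, whose mature form is scarce in embryonic stem cells, 266 genes had medians of 0.072 against 0.080 (Ribo-Tweezer) and 0.033 against 0.034 (control). For miR-92a-3p, 220 genes had medians of 0.11 against 0.077 (Ribo-Tweezer) and 0.058 against 0.032 (control). For miR-26a-5p, matched in the Tnrc6 genes, 371 genes had medians of 0.087 against 0.079 (Ribo-Tweezer) and 0.028 against 0.034 (control). For miR-19b-3p, 434 genes had lower medians than the rest in both lines, 0.072 against 0.080 (Ribo-Tweezer) and 0.020 against 0.035 (control). For miR-16-5p, 328 genes had 0.087 against 0.079 (Ribo-Tweezer) and 0.027 against 0.034 (control). For miR-103-3p, 281 genes had 0.082 against 0.079 and 0.032 against 0.034, and for miR-17-5p, 344 genes had 0.080 against 0.079 and 0.032 against 0.034, in the same order of lines. None of these gaps was tested. Values still moved with length inside the longest group. Its 4502 genes had medians of 0.080 (Ribo-Tweezer) and 0.034 (control), and its 1350 longest transcripts had 0.12 and 0.080. The lengths of genes with and without a match were not compared, so whether the gaps follow length was not tested.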
